A study of Mus musculus with 12 samples.

Results

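The clustered protocadherins are cell adhesion genes that lie side by side in 3 clusters, alpha, beta and gamma, on mouse chromosome 18. They were taken here as all protein-coding genes whose symbol has the form Pcdha, Pcdhb, Pcdhga, Pcdhgb, Pcdhgc or Pcdhac followed by a number. Of 46517 gene identifiers in the count files, 58 had such a symbol and 57 of these were protein-coding, 14 in the alpha, 22 in the beta and 21 in the gamma cluster. The 1 left out, Pcdhgb8, is annotated as a polymorphic pseudogene. The annotation gives ENSMUSG00000007440 and ENSMUSG00000102206 the same symbol, Pcdha11, and they are told apart here by identifier.

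Ribosome-bound and total RNA of the ventromedial nucleus (VMN) of mouse hypothalamus were compared by translating ribosome affinity purification, which pulls down ribosomes that carry a tag in chosen cells, with the RNA bound to them. The pull-down was aimed at SF1 cells, neurons named for a nuclear receptor that the gene Nr5a1 encodes. There were 12 libraries from 6 pools of 6 animals, and from each pool the tissue itself was sequenced as the input and the pulled-down RNA as the output. All mice ate chow and were fasted overnight, and all received a viral vector (AAV) for a fusion of GFP with ribosomal protein L10. The 3 pools called DN also received, in the VMN, an AAV with a dominant negative mutant of AMPK, the kinase that responds to low cellular energy. The 3 pools called CTRL are marked in their characteristics as lacking the mutant, although their treatment text names that virus too. This gives 4 groups of 3 libraries, namely inputs and outputs of CTRL and of DN. What restricted the tagged protein to SF1 cells, and the strain, sex and age of the animals, are not stated in the labels.

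Each clustered protocadherin is a single-pass membrane protein with cadherin repeats outside the cell that bind like copies on a facing cell. In the alpha and gamma clusters every isoform starts from its own large variable exon, with its own promoter, which is spliced to constant exons used by the whole cluster. Beta genes each consist of a variable exon and have no constant exons. Single neurons are known to use a few isoforms chosen largely at random, apart from the C-type isoforms at the end of the alpha and gamma clusters, which many neurons use together. The resulting surface codes are known for self-avoidance of dendrites and axons.

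Gene counts summed to 34.6 to 55.5 M per library, and without genes of the mitochondrial chromosome to 8.54 to 11.3 M per input and 26.2 to 32.1 M per output. Of 12 markers of VMN neurons, 10 were higher in outputs than in inputs of CTRL and 9 in DN (edgeR quasi-likelihood test, adjusted p under 0.05), and their summed level was 608 to 850 CPM in inputs and 1697 to 2586 CPM in outputs. CPM is the usual unit of counts relative to the size of the library, here with TMM scaling between libraries. Nr5a1 stood at 1.29 to 2.97 CPM in CTRL inputs and 12.5 to 36.2 CPM in CTRL outputs. The 10 astrocyte markers summed to 3149 to 3823 CPM in inputs and to 1134 to 1906 CPM in outputs. Prkaa1 and Prkaa2, which encode the catalytic subunits of AMPK, ranged from 21.1 to 85.9 CPM and from 36.7 to 114 CPM over the 12 libraries. Both overlapped between DN and CTRL inputs, Prkaa2 also between outputs, while Prkaa1 had 31.9 to 39.0 CPM in CTRL outputs and 21.1 to 30.2 CPM in DN outputs. The labels do not name the subunit or the species of the mutant, so these levels do not check the groups. Members took 3798 to 5706 counts of an input and 13524 to 16514 of an output, or 0.423 to 0.549‰ of the counts of nuclear genes. At this size a member's own count was often under 100, and counting error adds to the spread between pools. In such bulk samples fewer cells that use an isoform and less of its RNA per cell cannot be told apart.

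How much of each gene could be counted depended on the cluster. In the annotation, 2860 bases were exon of all 14 alpha genes and 2116 bases were exon of all 21 gamma genes, while no base was exon of every beta gene. The share of a gene's exon that no other annotated gene overlapped, on either strand, had a median of 46.4% in the alpha cluster (7.00 to 51.4%), 100% in the beta cluster (36.5 to 100%) and 54.8% in the gamma cluster (0 to 68.5%). Among the 22 beta genes, 19 had their exon wholly to themselves. Pcdhb21 and Pcdhb22 shared 455 bases with each other, and an antisense transcript, Gm37446, covered most of Pcdhb12.

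**Figure D1:**
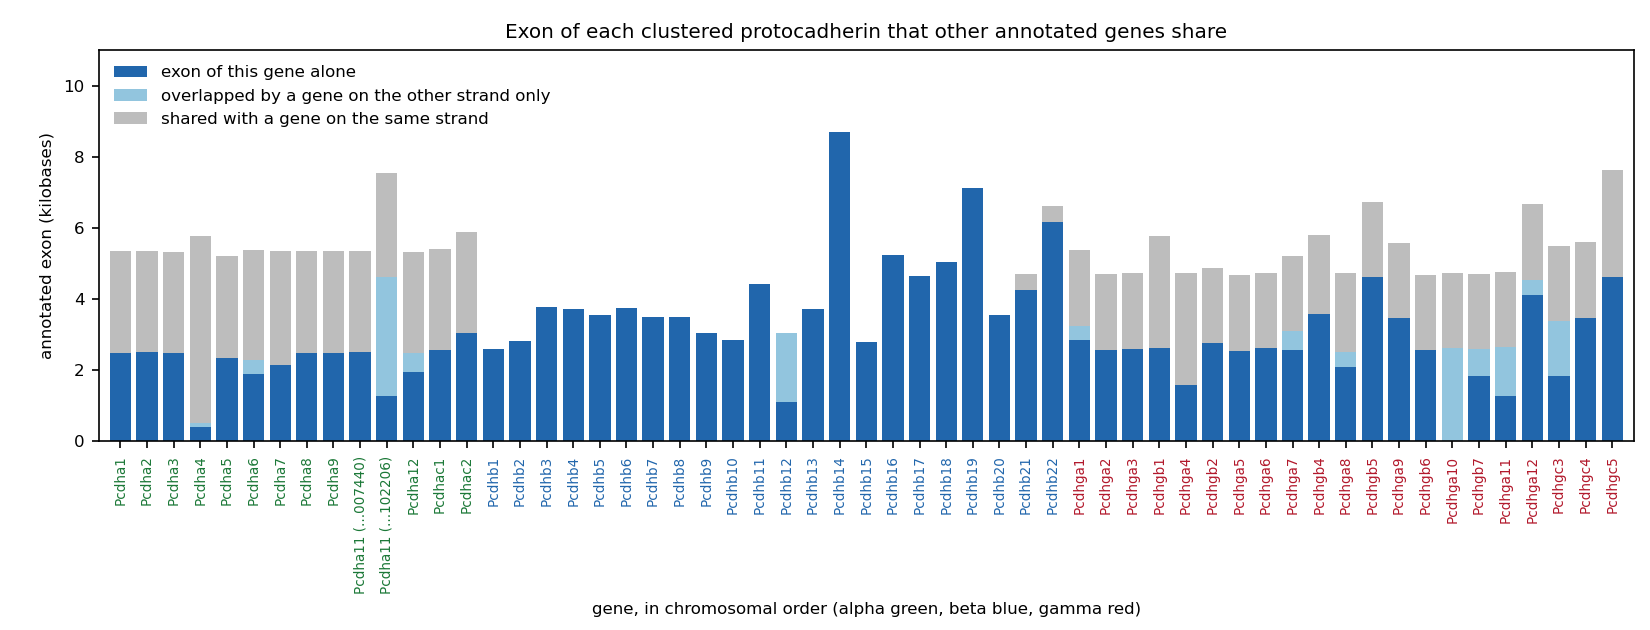
Annotated exon of each of the 57 genes in kilobases, in chromosomal order, divided into exon of that gene alone (dark blue), exon overlapped only by a gene on the other strand (light blue) and exon shared with a gene on the same strand (grey). Grey parts stand on all alpha and gamma genes and on 2 beta genes, and Pcdhga10 has no dark part.

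The members with the least exon of their own, Pcdhga10 and Pcdha4, had few counts or none. Among other members the counts did not simply follow the length of own exon. Pcdhga11 kept 1256 unshared bases and had 1638 counts over all libraries, and Pcdhb12 kept 1107 and had 587. Pcdha8 kept 2478 unshared bases and had 52 counts. Pcdhga10 (ENSMUSG00000102222) had no base of its own once both strands were considered, because the antisense transcript Gm26672 covers its variable exon and the rest is constant exon. It had 0 counts in all 12 libraries, which sets no limit on its level if reads over shared exon were not counted. Gm42416, Gm37013 and Gm37388, annotated read-through genes made of alpha and gamma exons, also had 0 counts throughout. Pcdha4 (ENSMUSG00000104252), which Gm42416 and an antisense transcript overlap, kept 404 unshared bases and had 29 counts over all libraries, 27 of them in DN output 3. Over the whole annotation, 22 protein-coding genes had at least 500 bases free on their own strand but none free of a gene on the other strand. Pcdhga10 is among them. Of the 22, 18 (81.8%) had 0 counts in all libraries, against 22.9% of 20906 genes with at least 500 bases free on both strands. Neither the counting of reads over shared exon nor its strand setting is given in the sources used here, so reads from a member and its antisense partner cannot be told apart.

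Some exon free on its own strand also recurs as sequence in other transcripts. Where such a transcript lies elsewhere, a read could map to several places. Transcripts on the other strand over the same place were counted too, although a read there has no second position. The shares below are therefore not shares of exon whose reads map to several places. The median share of 50-base windows of such exon that occur in a transcript of another gene was 15.1% in the alpha, 3.48% in the beta and 8.21% in the gamma cluster. It was 8.75% for Pcdhb9, whose most frequent match was its neighbour Pcdhb7, and with 100-base windows it was 1.15%. It passed 50% in Pcdha11 (ENSMUSG00000102206) at 72.7%, Pcdhb12 at 64.2%, Pcdhga10 at 100% and Pcdhga11 at 51.5%, in each case mostly through a transcript on the other strand over the same place. Their counts are the least certain.

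Summed over members, the beta and gamma clusters stood at similar levels and the alpha cluster at a lower one. The beta genes summed to 87.7 ± 16.0 CPM in CTRL inputs (SD, n = 3 here and below), 92.8 ± 18.5 CPM in DN inputs, 105.5 ± 13.1 CPM in CTRL outputs and 85.0 ± 15.3 CPM in DN outputs. The gamma genes summed to 84.8 ± 11, 83.3 ± 20.5, 105.4 ± 10.6 and 98.9 ± 3.41 CPM in the same order of groups. The alpha genes summed to 17.2 ± 2.77, 9.66 ± 7.23, 16.5 ± 6.04 and 19.0 ± 4.89 CPM. Of all member counts, 8.06% fell on alpha, 45.2% on beta and 46.7% on gamma genes. Per kilobase of unshared exon the median member had 0.183 CPM in the alpha, 0.780 CPM in the beta and 1.37 CPM in the gamma cluster, where Pcdhga10 has no such exon and was left out.

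The beta and gamma sums ranged less over the libraries than those of their members with at least 10 counts in every library, and the alpha sum did not. Over the 12 libraries the highest sum was 1.67 times the lowest in the beta cluster, 1.72 times in the gamma cluster and 15.9 times in the alpha cluster. Among the 26 members with at least 10 counts in every library, the highest level of a member was 3.51 to 83.7 times its lowest, with a median of 9.29. Pcdhb18 had the least range and Pcdhgb1 the most. At least 10 counts in every library were reached by 1 of 14 alpha, 10 of 22 beta and 15 of 21 gamma genes, and 19 of the 57 had a library with none.

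**Figure D2:**
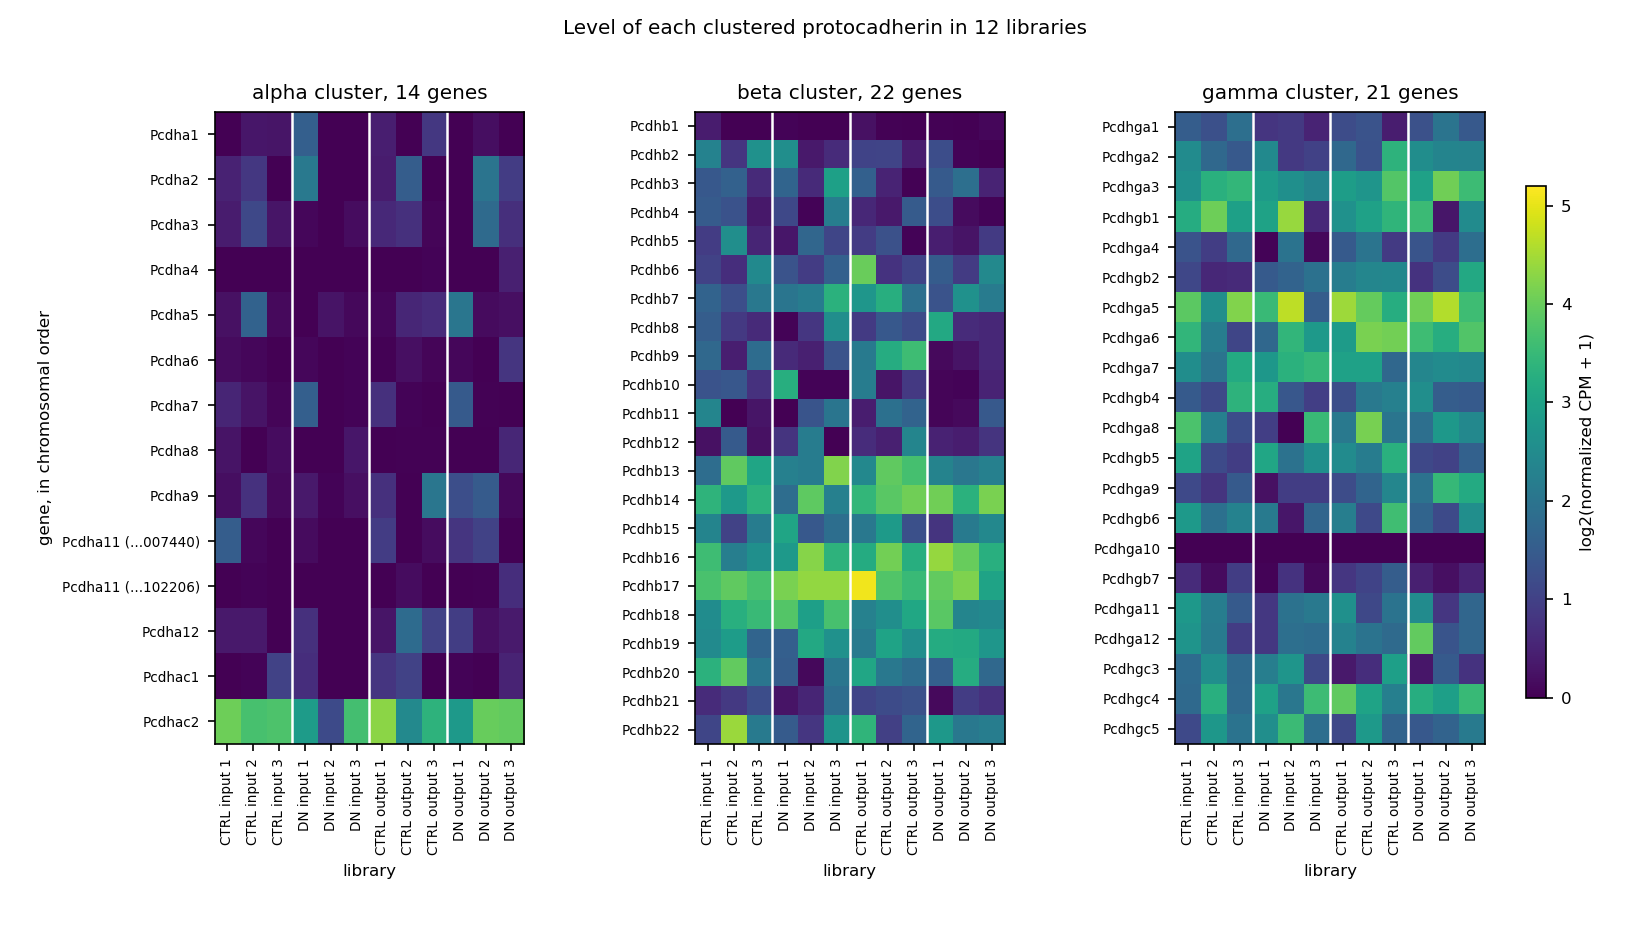
Level of each member as log2(normalized CPM + 1) by colour, with the 12 libraries in columns (white lines part the 4 groups) and the genes of each cluster in chromosomal order in rows. Pcdhac2 is the bright row of the alpha cluster, most beta rows from Pcdhb13 on are brighter than those before, and single squares differ from their neighbours within a group.

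The alpha cluster was carried by Pcdhac2 (ENSMUSG00000102697), a C-type isoform. Pcdhac2 had the most counts of the cluster in all 12 libraries and held 39.3 to 94.4% of them. Its level was 15.7, 12 and 12.4 CPM in CTRL inputs, 6.21, 1.25 and 11.5 CPM in DN inputs, 18.7, 4.44 and 9.26 CPM in CTRL outputs and 5.97, 15 and 14.6 CPM in DN outputs. DN input 2 was the lowest of the 12, with 31 counts. Per unshared kilobase Pcdhac2 had 3.49 CPM, far above Pcdha1, the lowest alpha gene that was tested, at 0.127 CPM. The other C-type alpha isoform, Pcdhac1, had 0, 0.0358 and 1.03 CPM in CTRL inputs and 0.742, 1.03 and 0 CPM in CTRL outputs. In DN it had 0.607, 0 and 0 CPM in inputs and 0.0295, 0 and 0.440 CPM in outputs, so that 5 libraries held no count.

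Alternate alpha isoforms were present in some libraries of a group and without a count in others. Pcdha2 had 3.32 CPM in DN input 1 and 0 in DN inputs 2 and 3, while in DN outputs it had 0, 2.99 and 0.893 CPM. Pcdha1 had 0, 0.251 and 0.223 CPM in CTRL inputs, 2.0 CPM in DN input 1 and 0 in the other DN inputs. In outputs Pcdha1 had 0.357, 0 and 0.805 CPM in CTRL and 0, 0.149 and 0 CPM in DN. Without Pcdhac2 the alpha sum ranged 37.3-fold over the libraries, from 0.243 to 9.07 CPM. DN output 1, of the same pool as DN input 1, had no count of Pcdha2 or Pcdha1. CTRL pool 2 was the highest of the CTRL pools for Pcdha2 in both fractions, at 0.788 CPM in the input and 1.88 CPM in the output.

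In the beta cluster the genes at the end nearer to the gamma cluster held most counts. Pcdhb13 to Pcdhb22 took 77.8% of the beta counts and Pcdhb1 to Pcdhb12 took 22.2%, and their median levels were 1.28 and 0.517 CPM per unshared kilobase. Across the 22 genes the order along the chromosome and the level had a Spearman rho of 0.50, a description over neighbouring genes of the same libraries. Pcdhb17 (ENSMUSG00000046387) was the highest per unshared kilobase at 3.38 CPM, and it led the cluster in 7 of 12 libraries. Its level was 12.1, 14.1 and 12 CPM in CTRL inputs, 16.7, 19.4 and 19.4 CPM in DN inputs, 33.2, 12.8 and 10.5 CPM in CTRL outputs and 14.5, 17.4 and 7.08 CPM in DN outputs. Pcdhb21 was the lowest that was tested, at 0.226 CPM per unshared kilobase. Pcdhb1 was lower still at 0.0199 CPM and passed no filter.

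The gamma genes were spread more evenly. Pcdhga5 (ENSMUSG00000103567) was the highest of all members per unshared kilobase, at 5.47 CPM, and led its cluster in 7 of 12 libraries. Its level was 13.9, 4.90 and 17.5 CPM in CTRL inputs, 10.5, 24.5 and 1.88 CPM in DN inputs, 20.6, 14.8 and 8.39 CPM in CTRL outputs and 15.9, 23.2 and 11 CPM in DN outputs. The groups overlapped. Pcdhgb7 was the lowest tested gamma gene at 0.324 CPM per unshared kilobase.

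The 3 C-type gamma isoforms did not lead the cluster as Pcdhac2 led the alpha cluster, except Pcdhgc4 in 1 library. Pcdhgc4 (ENSMUSG00000023036), known for the survival of interneurons, had 2.44, 8.74 and 2.45 CPM in CTRL inputs, 6.85, 3.20 and 10.8 CPM in DN inputs, 14.1, 7.11 and 3.76 CPM in CTRL outputs and 8.41, 6.63 and 10.3 CPM in DN outputs. Pcdhgc5 had 1.22, 5.69 and 2.94 CPM in CTRL inputs, 4.93, 10.7 and 2.68 CPM in DN inputs, 1.2, 6.06 and 2.17 CPM in CTRL outputs and 1.68, 2.15 and 3.35 CPM in DN outputs. Pcdhgc3, which is known to bind the Wnt pathway protein Axin1, had 2.5, 4.94 and 2.41 CPM in CTRL inputs and 3.64, 5.59 and 1.2 CPM in DN inputs. In outputs Pcdhgc3 had 0.285, 0.592 and 6.63 CPM in CTRL and 0.251, 1.76 and 0.687 CPM in DN. CTRL output 3 was the only output of Pcdhgc3 above 1.76 CPM.

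The comparison of DN with CTRL outputs asks which ribosome-bound RNAs of the targeted cells differ with the dominant negative construct. No member passed the threshold of an adjusted p under 0.05 in edgeR's quasi-likelihood test among the 49 tested, and neither did any of the 13333 genes tested (0%). At an unadjusted p under 0.05 stood 3 members, Pcdhb9, Pcdhb13 and Pcdhgb5, all lower in DN, against 5.41% of all genes in either direction and 2.8% lower. DESeq2 called 1 member, Pcdhb9, lower in DN, against 0.435% of all genes and 0.263% lower. Every DN output was below every CTRL output in 5 members, Pcdhb9, Pcdhb13, Pcdhb21, Pcdhgb5 and Pcdhgb7, and none was the reverse (11% of all genes did not overlap, 5.87% lower and 5.17% higher). The fitted difference was below 0 in 31 of 49 members (49.2% of all genes), in 3 of 8 alpha, 15 of 21 beta and 13 of 20 gamma genes.

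The median fitted log2 difference was -0.73 over 21 beta genes, -0.27 over 20 gamma genes and 0.46 over 8 alpha genes, beside 0.01 over all genes. The size of the beta median depended on single libraries, while its sign did not turn in the 13 alternatives tried. It was -0.25 without DN output 3, -0.40 without CTRL output 1, -0.48 without CTRL output 2 and -0.49 without DN output 2. The gamma median was 0.04 without DN output 2, -0.05 without CTRL output 2 and -0.15 without CTRL output 3. Summed over all 57 members, CTRL outputs had 222, 224 and 236 CPM in ascending order and DN outputs 191, 201 and 216 CPM, without overlap. Without Pcdhb9 the sums in CPM overlapped, at 211 to 232 CPM in CTRL and 190 to 216 CPM in DN. As a share of the nuclear counts of a library, without TMM scaling and chosen after seeing the data, they did not overlap: without Pcdhb9 the members held 0.492 to 0.541 per mille in CTRL outputs and 0.435 to 0.457 per mille in DN outputs. Among marker sums of cell types, those of astrocytes and of VMN neurons did not overlap between these groups either. The sums for oligodendrocytes and their precursors, microglia, endothelium, ependyma with tanycytes and other hypothalamic neurons did overlap. The 10 astrocyte markers summed to 1657 to 1906 CPM in CTRL outputs and 1134 to 1292 CPM in DN outputs, none of them at 0, and the 12 VMN neuron markers to 1697 to 1916 and 1937 to 2586 CPM. Such sums follow the most abundant markers. The median fitted log2 difference was -0.21 over the 9 astrocyte markers tested and 0.36 over the 12 VMN neuron markers. None of these markers passed the threshold in edgeR. The part of these cell types in the levels of the members was not tested.

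Pcdhb9 (ENSMUSG00000051242) lies at chr18:37400855-37403909 on the plus strand of GRCm38, and its exon fills that span and is shared with no other gene. Its counts were 241, 530 and 667 in CTRL outputs and 6, 14 and 36 in DN outputs. With 6 counts in DN output 1, Pcdhb9 passed the filter on low counts in this comparison through its CTRL outputs. The levels were 3.44, 8.25 and 11 CPM in CTRL outputs and 0.0884, 0.209 and 0.495 CPM in DN outputs. All 3 DN outputs were low, and the nearest libraries of the groups were 0.495 and 3.44 CPM. The log2 difference was -4.83 ± 1.04 (SE), with a 95% interval from -7.10 to -2.56, an unadjusted p of 6.18e-04 and an adjusted p of 0.88 in edgeR. In DESeq2 the log2 difference was -4.84 with an adjusted p of 1.07e-04. Over the alternatives tried, the log2 difference stayed between -5.65 and -4.41 and the adjusted p between 1.07e-04 and 1.0, and only DESeq2 put it past the threshold.

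The beta genes beside Pcdhb9 overlapped between the groups. Pcdhb7 had 5.62, 8.53 and 2.74 CPM in CTRL outputs and 1.53, 5.2 and 3.48 CPM in DN outputs, with a log2 difference of -0.73 ± 0.80 (adjusted p = 0.98, edgeR). Pcdhb8 had 0.856, 1.70 and 1.26 CPM in CTRL outputs and 7.80, 0.551 and 0.495 CPM in DN outputs, so that DN output 1 alone gave the log2 difference of 1.21 ± 1.24 its sign. Without DN output 1 the difference for Pcdhb8 was -1.28. The 2 genes on the other side leaned the way of Pcdhb9 with wider errors. Pcdhb10 had 3.57, 0.218 and 0.821 CPM in CTRL outputs and 0.0442, 0.0298 and 0.426 CPM in DN outputs (log2 difference -3.19 ± 1.66, adjusted p = 0.948, edgeR). Pcdhb11 had 0.328, 2.77 and 2.15 CPM in CTRL outputs and 0.0442, 0.0894 and 1.73 CPM in DN outputs (-1.49 ± 1.55, adjusted p = 0.977). In both genes a CTRL output lay within the range of the DN outputs. The 95% intervals of Pcdhb10 (-6.81 to 0.44) and Pcdhb11 (-4.87 to 1.90) overlapped that of Pcdhb9, while those of Pcdhb7 (-2.48 to 1.02) and Pcdhb8 (-1.50 to 3.91) did not. The difference between genes was not tested.

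**Figure D3:**
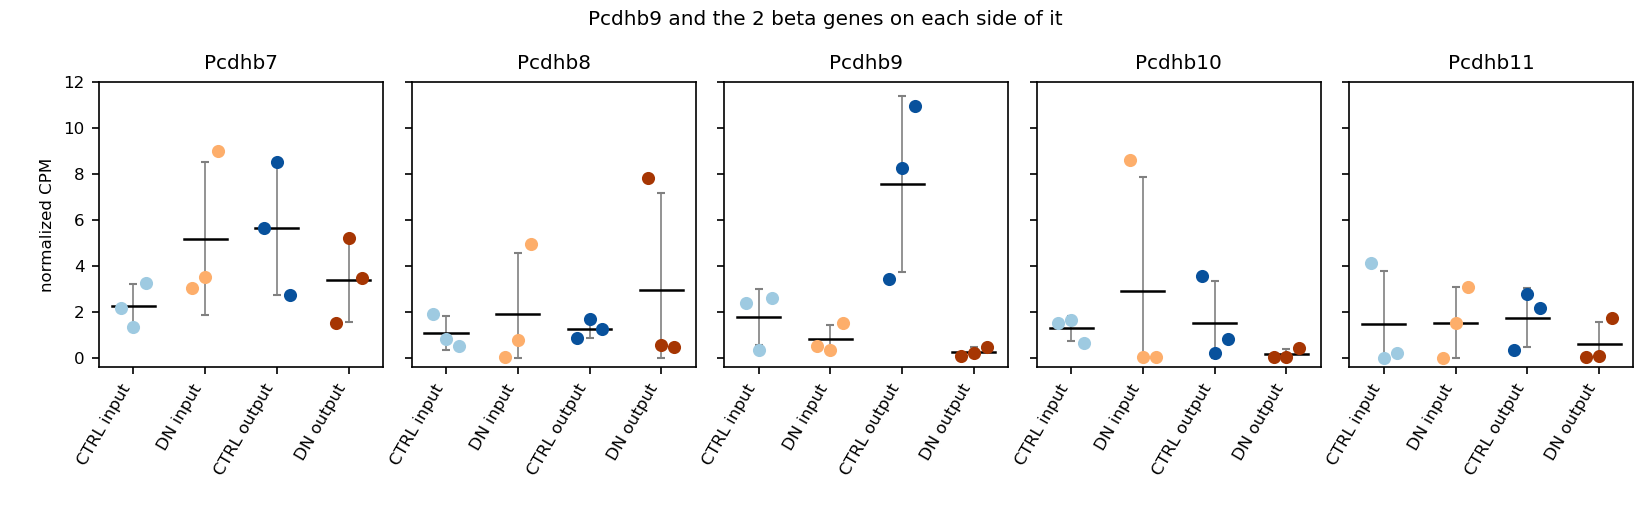
Normalized CPM of Pcdhb9 and the 2 beta genes on each side in the 12 libraries (points, by group), with the mean of each group as a black line and the SD as a grey bar, drawn no lower than 0. The 3 DN outputs of Pcdhb9 sit below 0.5 CPM and the 3 CTRL outputs above 3 CPM, while the groups of the other genes overlap in outputs.

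The next members by p in outputs were Pcdhgb5 and Pcdhb13. Pcdhgb5 (ENSMUSG00000103749) had 4.68, 3.56 and 8.79 CPM in CTRL outputs and 1.18, 1.03 and 2.06 CPM in DN outputs, a log2 difference of -2.0 ± 0.85 (adjusted p = 0.911, edgeR). Pcdhb13 (ENSMUSG00000047307) had 4.41, 14.3 and 11.7 CPM in CTRL outputs and 3.98, 3.20 and 3.83 CPM in DN outputs, a log2 difference of -1.47 ± 0.65 (adjusted p = 0.911). For Pcdhb13 the lowest CTRL output and the highest DN output were within 1 CPM of each other. Pcdhgb7 had 0.756, 1.06 and 1.91 CPM in CTRL outputs and 0.368, 0.164 and 0.426 CPM in DN outputs. Pcdhb21 had 1.10, 1.28 and 1.43 CPM against 0.0884, 0.894 and 0.673 CPM. These last members had a log2 difference of -1.95 ± 1.3 and -1.2 ± 1.31, with adjusted p of 0.949 and 0.98.

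In inputs the same contrast asks whether the whole dissected tissue differs. None of 43 members tested passed the threshold in edgeR (0.00756% of all genes did) or in DESeq2 (0.0151%), and 1 stood at an unadjusted p under 0.05 in edgeR (4.46% of all genes). Groups did not overlap in 4 members (10.5% of all genes), of which Pcdhac2 and Pcdhga1 were lower in DN and Pcdhb17 and Pcdhgb2 higher. Pcdhb20 had the smallest p, with 9.18, 14.5 and 3.08 CPM in CTRL inputs and 1.89, 0.0810 and 3.12 CPM in DN inputs, a log2 difference of -2.39 ± 1.02 (unadjusted p = 0.0374, adjusted p = 0.997). Its lowest CTRL input and highest DN input were about level. Pcdhac2, with the levels given above, differed by -1.07 ± 0.68 (adjusted p = 0.997), and Pcdhb17 by 0.54 ± 0.38. Pcdhb22 had 1.11, 20.5 and 3.35 CPM in CTRL inputs and 1.82, 0.769 and 5.48 CPM in DN inputs, and its difference of -1.62 ± 1.04 became 0.28 without CTRL input 2. Pcdhb9 had 2.37, 0.358 and 2.59 CPM in CTRL inputs and 0.535, 0.364 and 1.52 CPM in DN inputs, with counts of 68, 10 and 58 against 15, 9 and 38. The groups of Pcdhb9 overlapped, and the log2 difference was -1.13 ± 1.19 (adjusted p = 0.997), with an interval from -3.73 to 1.47.

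The neighbours of Pcdhb9 overlapped between the groups in inputs as well, with 1 library far above the rest in several of them. Pcdhb7 had 2.16, 1.36 and 3.26 CPM in CTRL inputs and 3.03, 3.52 and 9.0 CPM in DN inputs (log2 difference 1.2 ± 0.81). Pcdhb8 had 1.91, 0.823 and 0.535 CPM in CTRL inputs and 0.0357, 0.769 and 4.96 CPM in DN inputs (0.81 ± 1.39). Pcdhb10 had 1.53, 1.65 and 0.669 CPM in CTRL inputs and 8.60, 0.0405 and 0.0400 CPM in DN inputs (1.17 ± 1.57). For Pcdhb10 the only DN input above all CTRL inputs was that of pool 1. Pcdhb11 had 4.14, 0 and 0.223 CPM in CTRL inputs and 0, 1.54 and 3.08 CPM in DN inputs (0.07 ± 1.80). The adjusted p in edgeR was at least 0.997 for these genes.

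The median fitted log2 difference in inputs was 0.30 over 21 beta genes and -0.33 over 20 gamma genes, beside 0.03 over all genes. The beta median was -0.33 without DN input 3, and the gamma median was 0.02 without DN input 3 and ranged to -0.57 when other libraries were left out. The difference was above 0 in 23 of 43 members (52.2% of all genes).

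Output against input asks which RNAs the pull-down enriched. In CTRL none of 48 members passed the threshold in edgeR, against 3.2% of all genes, and none in DESeq2, against 8.71%, while 2 stood at an unadjusted p under 0.05 in edgeR (16.3% of all genes). In DN none of 43 members passed in edgeR, against 3.38% of all genes, 1 stood at an unadjusted p under 0.05 (15.7%) and DESeq2 called 1, Pcdhga9, against 8.62%. Output and input groups did not overlap in 3 members in CTRL (23.2% of all genes) and in 5 in DN (22.5%). The 3 in CTRL were Pcdhb9, Pcdhb14 and Pcdhgb2, all higher in outputs. In DN, Pcdhga1, Pcdhga3 and Pcdhga9 were higher and Pcdhga7 and Pcdhgb5 lower in outputs. The comparisons in CTRL and in DN share no library.

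Within a pool the ratio of output to input was taken as log2((output CPM + 1)/(input CPM + 1)). Its median over the 51 members tested in any comparison was -0.0041, 0.07 and 0.45 in the CTRL pools and 0.06, -0.0088 and 0 in the DN pools, beside -0.015 to 0 over all genes in the 6 pools. Single members ranged from -3.44 to 3.01 in CTRL pools and from -4.08 to 3.12 in DN pools. Of the 51, 49 had a ratio above 0 in some pools and not in others within CTRL or within DN. Pcdhga9 alone had all 6 pools above 0, and Pcdhb9 alone had 3 CTRL pools above and 3 DN pools below 0. In a single pool 46.9 to 48.8% of all genes had a ratio above 0. The shares of all genes with these patterns over the pools were not counted, so the patterns are not shown to be unusual. The beta median was 0.05 to 0.07 in CTRL pools and -0.58 to 0.05 in DN pools, and the gamma median ran from -0.20 to 0.55 and from -0.31 to 0.69.

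**Figure D4:**
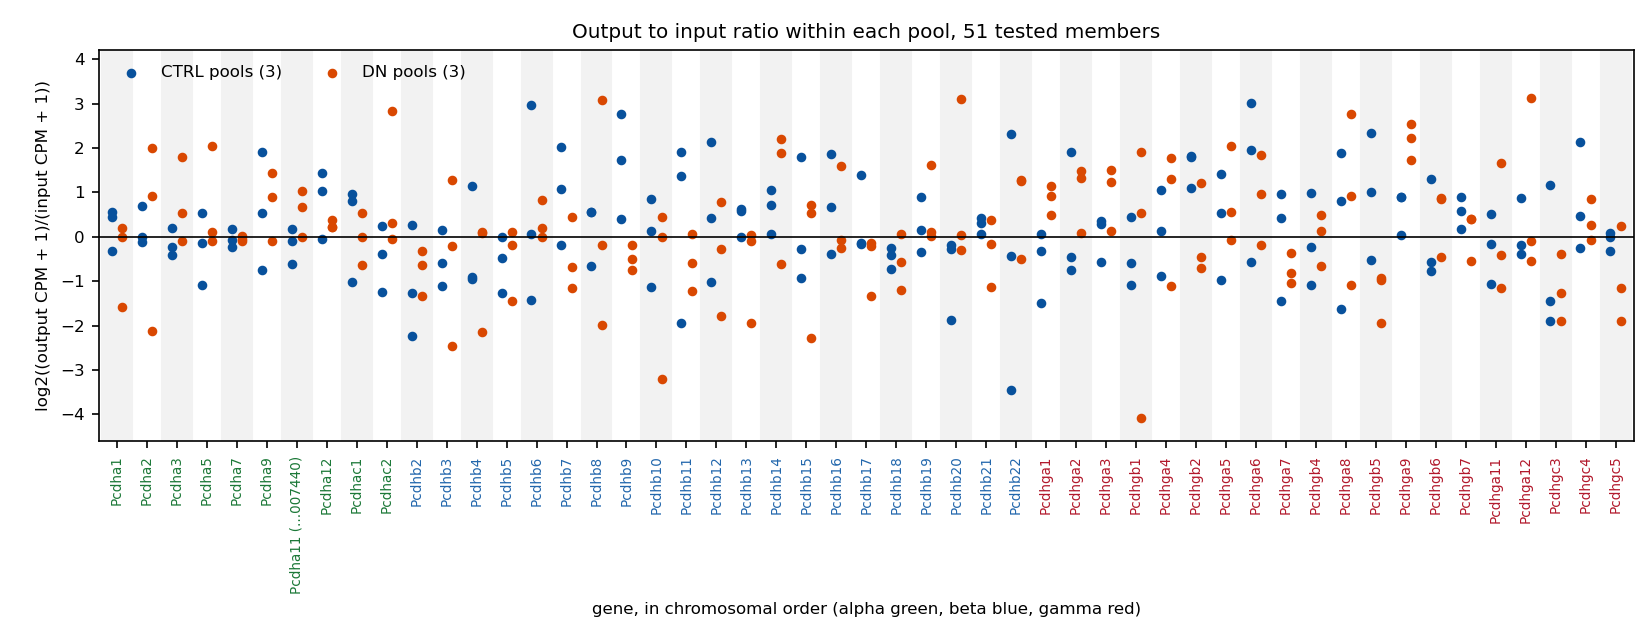
Log2 ratio of output to input CPM (1 CPM added to both) within each pool for the 51 members tested in any comparison, in chromosomal order, with 3 CTRL pools in blue and 3 DN pools in orange. Points of most genes fall on both sides of the line at 0; those of Pcdhga9 all lie above it, and Pcdhb9 has its CTRL points above and its DN points below.

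Pcdhga9 (ENSMUSG00000102440) had 1.22, 0.716 and 1.78 CPM in CTRL inputs and 1.3, 2.18 and 4.22 CPM in CTRL outputs. In DN it had 0.178, 0.931 and 0.92 CPM in inputs and 2.89, 10.2 and 8.02 CPM in outputs, so that every DN output was above every DN input. The log2 difference in DN was 3.37 ± 1.06, with an adjusted p of 0.119 in edgeR and of 0.00973 in DESeq2, and the pool ratios were 1.72, 2.54 and 2.23. In CTRL the pool ratios were 0.05, 0.89 and 0.91. Pcdhgb5 leaned the other way in DN, with 7.42, 2.87 and 5.04 CPM in inputs and the outputs given above (-1.85 ± 0.95, adjusted p = 0.387, edgeR).

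In CTRL the smallest p was that of Pcdhgb2 (ENSMUSG00000102748), with 1.15, 0.501 and 0.535 CPM in inputs and 3.64, 4.27 and 4.34 CPM in outputs. Its CTRL outputs were close together and all above the inputs, and the log2 difference was 2.47 ± 0.86 (adjusted p = 0.166 in edgeR and 0.0501 in DESeq2). In DN, Pcdhgb2 had 1.78, 2.15 and 2.84 CPM in inputs and 0.707, 1.31 and 7.85 CPM in outputs. Pcdhb9 came next in CTRL, at 2.07 ± 0.84 (adjusted p = 0.24 in edgeR and 0.0917 in DESeq2), with pool ratios of 0.40, 2.77 and 1.74. In DN its difference was -1.61 ± 1.41 (adjusted p = 0.66, edgeR), with pool ratios of -0.50, -0.17 and -0.75. Pcdhga6 (1.43 ± 0.73) and Pcdhb2 (-2.01 ± 1.04) followed in CTRL with adjusted p of 0.366 and 0.375. Pcdhga6 had 9.67, 3.58 and 1.12 CPM in CTRL inputs and 6.19, 16.7 and 16.0 CPM in CTRL outputs, beside 2.36, 9.67 and 6.0 CPM in DN inputs and 11.1, 8.45 and 12.8 CPM in DN outputs. Pcdhb2 had 3.93, 0.752 and 5.17 CPM in CTRL inputs and 1.06, 1.11 and 0.312 CPM in CTRL outputs, beside 4.96, 0.283 and 0.560 CPM in DN inputs and 1.36, 0.0298 and 0 CPM in DN outputs. In both genes 1 CTRL input lay within the range of the CTRL outputs.

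Pcdhga3 (1.13 ± 0.65) and Pcdhgc3 (-1.96 ± 1.19) followed in DN with adjusted p of 0.449 and 0.482. Pcdhga3 had 6.25, 4.98 and 4.08 CPM in DN inputs and 6.91, 15.9 and 10.9 CPM in DN outputs, without overlap. In CTRL the levels of Pcdhga3 overlapped, at 5.11, 8.81 and 9.95 CPM in inputs and 6.44, 5.59 and 13 CPM in outputs.

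Whether the effect of the pull-down differed between DN and CTRL was tested as an interaction over all 12 libraries. None of 51 members passed in edgeR, as none of 15011 genes did (0%), and none in DESeq2, against 0.66% of all genes. At an unadjusted p under 0.05 stood 2 members, Pcdhb9 and Pcdhgb5, against 6.22% of all genes. For Pcdhb9 the difference of the log2 effects was -3.69 ± 1.47, with an unadjusted p of 0.0232 and an adjusted p of 0.738. For Pcdhgb5 it was -2.71 ± 1.23 (adjusted p = 0.779). For Pcdhga9 it was 2.33 ± 1.3 (adjusted p = 0.845), so the larger pool ratios of Pcdhga9 in DN are not shown to differ from those in CTRL.

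The spread between libraries of a group was large, and so was that of other genes at these levels. Members counted in all 3 libraries of a group differed between the highest and the lowest of them by a median of 3.59 times in CTRL inputs, 5.10 times in DN inputs, 3.56 times in CTRL outputs and 3.33 times in DN outputs. Over all genes the medians were 2.03, 2.47, 2.24 and 2.44 times. Besides, 12, 17, 11 and 13 members had no count in at least 1 library of these groups. The biological coefficient of variation, edgeR's estimate of the spread beyond counting error, had a median of 0.842 over 51 members and of 0.667 over 15011 genes. That coefficient falls with level, and set against the trend at its own level a member lay above it in 18 of 51 cases (35.3%), beside 34.4% of all genes. Above the trend were 6 of 10 alpha, 8 of 21 beta and 4 of 20 gamma genes. No member was over 1.5 times the trend, beside 1.58% of all genes. These estimates are already drawn toward the trend, which limits such ratios. Within the inputs alone, 20 of 43 members (46.5%) were above it, beside 32.2% of all genes: 2 of 2 alpha, 11 of 21 beta and 7 of 20 gamma genes. There 1 member, Pcdhga8, was over 1.5 times the trend, at 1.58 times, beside 0.862% of all genes.

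**Figure D5:**
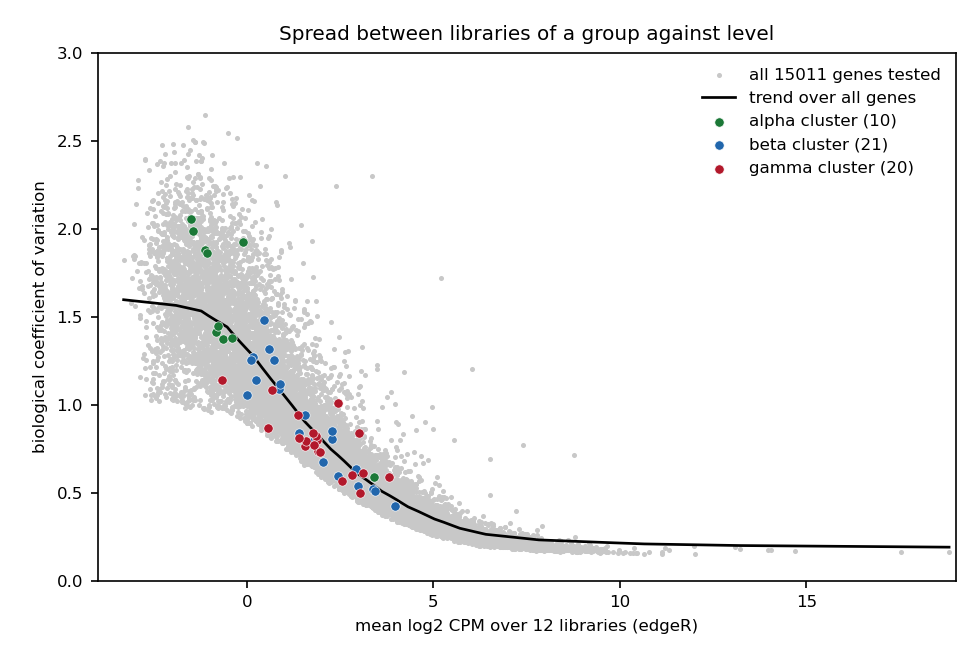
Biological coefficient of variation around the 4 group means against mean log2 CPM for 15011 genes (grey), with the trend over all genes (black line) and 51 members coloured by cluster. Members lie on both sides of the trend (18 above it), and alpha genes other than Pcdhac2 sit at the left, where levels are low and the coefficient is high.

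Deviations of members in an input and in the output of the same pool showed no positive correlation. Deviations of log2 levels from their group means, correlated between the input and output of a pool across the 51 members, gave r of -0.16, -0.14 and -0.09 in CTRL and -0.08, -0.26 and -0.04 in DN. Across all genes the values were 0.0963, 0.0350 and 0.156 in CTRL and 0.00407, -0.00229 and 0.0153 in DN. These are correlations across genes of the same pair of libraries, and genes are not independent replicates. All RNA was amplified before sequencing, and what amplification adds to this spread was not tested.

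Genes related by family or function were set beside the clusters. Of 12 nonclustered protocadherins, which lie outside the clusters and have no variable exons, 11 were tested. Of the 11, 3 were higher in CTRL outputs than inputs in edgeR, Pcdh1 (1.03 ± 0.22, adjusted p = 0.0267), Pcdh7 (0.87 ± 0.18, adjusted p = 0.0243) and Pcdh17 (0.66 ± 0.13, adjusted p = 0.0236), beside 1.78% of all genes higher. In DN 2 of 11 were higher, Pcdh1 (1.33 ± 0.22) and Pcdh17 (0.93 ± 0.14), beside 1.84% of all genes higher. None was called between DN and CTRL in either fraction. The smallest p in outputs was that of Pcdh17 (0.49 ± 0.15, adjusted p = 0.88).

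Of 20 genes known to act on the choice or silencing of cluster promoters, such as Ctcf, the cohesin subunits, Smchd1 and the DNA methyltransferases, 19 were tested and none passed in any of the 5 comparisons in edgeR. Dnmt1, the maintenance methyltransferase, had the smallest p in outputs against inputs of DN (1.65 ± 0.59, adjusted p = 0.174). Of 20 partners in signalling and processing, Cyfip1, a subunit of the WAVE complex that acts on actin, was lower in CTRL outputs than inputs (-1.67 ± 0.31, adjusted p = 0.0144, edgeR), beside 1.42% of all genes lower, and the other 19 did not pass. None of the 20 partners passed in the other 4 comparisons. Among 20 classical cadherins and catenins, Cdh13, a cadherin anchored by a lipid, was higher in outputs than inputs of CTRL (1.49 ± 0.25, adjusted p = 0.00972) and of DN (1.38 ± 0.24, adjusted p = 0.00919). Cdh20 was lower in CTRL outputs (-2.80 ± 0.67, adjusted p = 0.0487), and none was called between DN and CTRL.

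The protein-coding genes at the borders of the clusters were measured as well. Of 7 tested in outputs, Hars, Hars2, Zmat2, Taf7, Diaph1, Hdac3 and Rell2, none passed in any comparison in edgeR. Taf7, which encodes a subunit of a general transcription factor and lies between the beta and gamma clusters on the minus strand, had 1.16, 3.46 and 0.542 CPM in CTRL outputs and 11.2, 6.08 and 3.87 CPM in DN outputs. All DN outputs of Taf7 were above all CTRL outputs, the opposite order to Pcdhb9, with a log2 difference of 2.03 ± 0.91 (unadjusted p = 0.0452, adjusted p = 0.911). Hdac3 had the same order, with 10.8, 11.2 and 2.89 CPM in CTRL outputs and 19.8, 13.8 and 25.9 CPM in DN outputs. The log2 difference of Hdac3 was 1.26 ± 0.57 (unadjusted p = 0.0480, adjusted p = 0.911, edgeR). The other border genes tested overlapped between these groups. Of all genes tested in outputs, 5.17% had every DN output above every CTRL output. Taf7 in inputs had 9.39, 5.69 and 2.36 CPM in CTRL and 16.9, 6.68 and 10.2 CPM in DN. Slc25a2, beside Taf7, had 0 counts in all 12 libraries, which allows up to 3 in a library. Among noncoding genes of the region, Gm37751, an antisense transcript in the alpha cluster, had 129 counts in DN input 1 and 878 in DN output 1, both from a single pool, and at most 1 in the other 10 libraries.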

How the data were processed

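The authors deposited, for each library, a table of raw read counts by Ensembl identifier. The tools HTSeq 0.6.1, STAR 2.4.2a and cutadapt 1.3 and the build GRCm38 are named per the submitters' processing notes, and per the labels' protocols the NuGEN Ovation system amplified the RNA of every sample. Not given in the sources used here: annotation release, strand setting and counting mode. The 5 HTSeq classes of reads without a gene were left out of all gene totals. Ambiguous reads were 1.23 to 1.38% of gene counts and ambiguous reads together in inputs and 2.87 to 3.27% in outputs. Mitochondrial genes are included there and took 74.9 to 79.7% of gene counts in inputs and 17.9 to 26.1% in outputs. The 2 shares therefore do not compare the loss of nuclear reads between the fractions. Symbols, exons and positions came from GENCODE release M21 (GRCm38). Of the identifiers, 46005 (98.9%) were found there. No sequence of these genes is printed.

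Genes were tested with edgeR 4.0.16 (quasi-likelihood, two-sided) in R 4.3.3 with TMM scaling. Low genes were removed with filterByExpr, at a count of 10 and a total of 15, and p-values were adjusted by Benjamini-Hochberg over the genes left, with a threshold of 0.05. The comparisons were DN against CTRL in outputs and in inputs, output against input in CTRL and in DN, each in a fit of 6 libraries, and their interaction in all 12. Errors of fold changes are standard errors of the fit. Levels are CPM with TMM factors over the 12 libraries, and unshared exon was counted over both strands. Of the 57 genes, 51 passed the filter in some comparison; Pcdha4, Pcdha6, Pcdha8, Pcdha11 (ENSMUSG00000102206), Pcdhb1 and Pcdhga10 never did. A member that passed through a single group had to differ, so counts over tested members describe those alone. Groups and replicate numbers come from the sample titles. Each library is a pool of 6 animals, so p-values measure the spread between libraries of such pools. The main fits of output against input and of the interaction took input and output of a pool as independent. A block for the replicate was an alternative only.

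The members and gene lists were chosen with earlier results of these data known. Values in every library were given for Pcdhb9 and the 2 beta genes on each side, the 5 C-type genes, the highest and lowest tested member per cluster per unshared kilobase, and the 4 members of smallest p per comparison. Pcdha2, Gm37751 and the members named because their groups did not overlap or their range was extreme were added after their values were seen. From other lists the genes past the threshold or of smallest p were named.

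Input and output of a number come from 1 pool, per the series' design text, and so are paired; deviations within a pool correlated over all genes at 0.0963, 0.0350 and 0.156 in CTRL and 0.00407, -0.00229 and 0.0153 in DN. DN and CTRL pools of a number are different animals. Alternatives were DESeq2 1.42.0, its size factors, no filter, a mean of at least 5 CPM, no mitochondrial genes, 1 fit over the 12 libraries, a replicate block, and each replicate left out in turn. Others were 0.5 CPM added, length of all exon, and dispersion within inputs or outputs. The scripts were tested on simulated data. No molecular identifiers were named, so limits from counts cover counting error only.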

Additional observations from a re-analysis of the deposited data

Results flagged for a closer look

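Pcdhb9 met the rule for effects that point in opposite directions in the 2 groups of animals. Its log2 output to input ratio was above 0 in all 3 CTRL pools, from 0.40 to 2.77, and below 0 in all 3 DN pools, from -0.75 to -0.17. The difference between the effects was tested as an interaction in edgeR over the 12 libraries and was -3.69 ± 1.47, with an unadjusted p of 0.0232 and an adjusted p of 0.738. The adjusted p over the alternatives tried ran from 0.337 to 1.0. It was the 1 member of 51 with that pattern, and the share of all genes with it was not counted. DN inputs and outputs of Pcdhb9 together rest on counts of 6 to 38 per library.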

How the results depend on the processing

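The count of members past the threshold was 0 in each of the 5 comparisons under edgeR with every scaling, filter and left-out replicate tried. With the replicate block it was also 0 in each, and the block changed no call of a member. Between DN and CTRL the block matched pools by their number alone, although these are different animals. With that block, Pcdhb8 in outputs stood at -0.20 in place of 1.21. Over all genes the block gave 0 calls for DN against CTRL in outputs and inputs, 527 for output against input in CTRL, 396 in DN and 0 for the interaction. DESeq2 called 1 member in DN against CTRL outputs (Pcdhb9) and 1 in DN output against input (Pcdhga9). Among single named genes, 4 values turned sign: Pcdhb8 in outputs with the block and at -1.28 without DN output 1, Pcdhb22 in inputs at 0.28 without CTRL input 2, and Pcdhb10 in the interaction at 2.17 without DN replicate 1. None of these 4 had passed the threshold. Of the 15 cluster medians, 11 turned sign under at least 1 alternative, such as the beta median in inputs (0.30, or -0.33 at the lowest) and the gamma median in outputs (-0.27, or 0.04 at the highest). Over left-out replicates Pcdhb8 ran from -1.28 to 1.71, Pcdhb22 from -2.68 to 0.28 and Pcdhb10 from -7.02 to 2.17.

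Over all genes tested, calls depended on tool and filter. DESeq2 gave 58 in outputs (0 in edgeR), 2 in inputs (1 in edgeR), 1172 in CTRL (431), 1124 in DN (441) and 99 in the interaction (0). No filter gave 39, 903, 976 and 54 in inputs, CTRL, DN and the interaction. In inputs, DESeq2 size factors in edgeR, a mean of at least 5 CPM, no mitochondrial genes, the block and 1 fit of all libraries gave 0, and leaving out a replicate 0 to 8. Leaving out a replicate gave 45 to 214 in CTRL and 115 to 148 in DN, and 1 fit of all libraries 673 in DN. The cause was not tested, except that fewer samples enter a fit without a replicate.

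Per kilobase of all annotated exon the cluster medians were 0.0786 CPM in alpha (0.183 unshared) and 0.599 CPM in gamma (1.37), since longer exon divides the same counts. The beta median of CTRL pool ratios was 0.0800 with 0.5 CPM added and 0.0388 with DESeq2 size factors, beside 0.0642. Dispersion within inputs put 2 of 2 alpha, 11 of 21 beta and 7 of 20 gamma genes above the trend, beside 6 of 10, 8 of 21 and 4 of 20. Depth limits the alpha cluster most: 13 of its 14 genes had a mean under 1 CPM and a library without a count.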
